A study of Mus musculus with 14 samples.

Results

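Eomes, Tbx21, Tcf7, Lef1, Id2, Id3 and Zeb2, 7 transcription factor genes tied to memory and effector states of T cells, were followed in the T cells of white nodules of cKO mice. They form a named list, chosen by symbol and with earlier results of these data known, and make up 7 of the 32285 genes counted. The mice carried Eif3e fl/fl with Cγ1 Cre and the Rosa26-YFP LSL reporter, so that Eif3e, a subunit gene of the translation initiation factor eIF3, is deleted in activated B cells that transcribe the Cγ1 segment and not by design in T cells. From each of 7 mice, 1 nodule gave 1 single-cell RNA library and 1 library of rearranged antigen receptors, covering the B cell receptor (BCR) or the T cell receptor (TCR). BCR nodules lay in the liver (mouse 27, aged 12 mo), the lung (mouse 29, aged 12 mo), the spleen (mouse 31, aged 13 mo), the thymus (mouse 33, aged 16 mo), and both lung and thymus (mouse 34, aged 9 mo), and TCR nodules in the liver (mouse 30, aged 14 mo) and the spleen (mouse 32, aged 12 mo). The nodule of mouse 27 was, in the study's account, a secondary tumor grown from cells transferred into a Rag2-/- host, which lacks mature B and T cells of its own, and donor and host cells were not told apart here. Because each mouse gave 1 sample, site, age and mouse cannot be told apart, and no nodule or tissue of a control mouse was analysed here.

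Eomes and Tbx21 (which encodes T-bet) are T-box factors that drive effector genes such as those of cytotoxicity and interferon-γ, with Eomes also tied to memory. Tcf7 (encoding TCF-1) and Lef1 are HMG-box factors of naive and memory T cells. Id2 and Id3 encode inhibitors that bind E proteins and keep them off DNA, Id2 being linked to effector cells and Id3 to memory precursors, and Zeb2 encodes a repressor that acts with T-bet in terminal effector cells.

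In mm10 (GRCm38) coordinates as RefSeq annotates them on GRCm38.p6, Eomes (ENSMUSG00000032446) lies at chr9:118478186-118486132 and Tbx21 (ENSMUSG00000001444) at chr11:97098007-97115331. Tcf7 (ENSMUSG00000000782) lies at chr11:52246527-52283383, Lef1 (ENSMUSG00000027985) at chr3:131110297-131224357 and Zeb2 (ENSMUSG00000026872) at chr2:44983512-45117442. Id2 (ENSMUSG00000020644) lies at chr12:25093799-25096092 and Id3 (ENSMUSG00000007872) at chr4:136143822-136145392.

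The promoters of Eomes and Tbx21 are shown because these were the members whose level differed between CD8 and CD4 T cells below. Each is 300 bases from RefSeq, 250 before the start site and 50 after it, written 5′ to 3′ on the strand of the gene, with matches to the motifs searched in capitals.
Eomes, chr9:118477939-118478238, plus strand: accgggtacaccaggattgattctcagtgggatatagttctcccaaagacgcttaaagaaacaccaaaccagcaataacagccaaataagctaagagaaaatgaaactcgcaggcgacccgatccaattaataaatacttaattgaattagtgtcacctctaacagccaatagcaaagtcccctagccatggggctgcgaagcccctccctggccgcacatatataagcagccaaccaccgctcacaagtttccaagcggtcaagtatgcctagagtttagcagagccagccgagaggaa
Tbx21, chr11:97115282-97115581, minus strand: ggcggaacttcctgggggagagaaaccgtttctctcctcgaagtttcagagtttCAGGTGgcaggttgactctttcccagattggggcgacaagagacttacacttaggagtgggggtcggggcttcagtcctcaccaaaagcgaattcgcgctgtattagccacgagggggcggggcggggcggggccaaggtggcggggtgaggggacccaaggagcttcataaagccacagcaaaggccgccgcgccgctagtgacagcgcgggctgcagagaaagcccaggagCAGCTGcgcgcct
Motifs were searched as exact letters on both strands: GGTGTGA for T-box factors, CTTTGAT and CTTTGAA for TCF and LEF factors, and CAGGTG and CAGCTG for E proteins. GGTGTGA and CAGGTG can overlap, as both hold GGTG. The Eomes window held none of them. The Tbx21 window held CAGGTG starting 196 bases before the start site and CAGCTG starting 37 bases after it. Among 14 promoter windows of the members, 3 held CAGGTG (of Tbx21, Tcf7 and Lef1) and 4 held CAGCTG (of Tbx21, Tcf7, Lef1 and Id2), and none held the T-box or TCF and LEF letters. Of all 32851 promoter windows, 20.2% held CAGGTG, 16.3% CAGCTG, 3.98% GGTGTGA, 3.73% CTTTGAT and 5.14% CTTTGAA. A match describes the letters of a window and is not a binding site.

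The T clones were defined by their receptor, so the junctions (CDR3) that marked them are shown. A clone family comprised all TCR-called cells with the commonest β chain or the commonest α chain of their library, each chain being picked separately over all called cells. It took 2117 of 2513 called cells (84.2%) in mouse 30 and 4915 of 5451 (90.2%) in mouse 32.
Mouse 30, TRBV1 and TRBJ2-1: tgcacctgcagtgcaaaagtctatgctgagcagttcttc
Mouse 30, TRAV9-2 and TRAJ21: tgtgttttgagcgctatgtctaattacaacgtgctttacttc
Mouse 32, TRBV26 and TRBJ2-5: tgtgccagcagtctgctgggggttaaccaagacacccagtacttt
Mouse 32, TRAV6N-7 and TRAJ30: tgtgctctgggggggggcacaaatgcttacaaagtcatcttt

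T cells outside the clones were cells of T-like clusters, which were named from at least 3 T cell markers. In the TCR nodules, only those with a called TCR and neither chain of the clone family were taken. In mouse 32 this left in 54 of 503 other TCR-called T cells (10.7%) and 19 of 79 CD4 T cells (24.1%) that the authors' calls put in the largest clonotype, while mouse 30 and the CD8 T cells of both mice held none. These cells carried 0 Eomes UMIs, and levels without them are given for each member in the clone comparisons. CD8 T cells held a UMI (a counted transcript molecule) of Cd8a or Cd8b1 and none of Cd4, and CD4 T cells the reverse. CD4 T cells numbered 79 to 817 per mouse and CD8 T cells 24 to 1256, the fewest CD8 T cells being in mouse 30. All 8 T cell markers were found in both groups of every mouse. The clone of mouse 30 held 2107 cells past the filters and that of mouse 32 held 4868. Levels are given as CPM, the UMIs of a gene scaled to the same summed UMIs in each group and mouse, and their 95% exact Poisson intervals cover counting error only. As the mRNA of a group is summed, more cells with a gene and more mRNA per such cell cannot be told apart by the level.

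The libraries held 19264039 to 123456962 UMIs, and 704 to 1266 cell barcodes of each library also occurred in another. Eif3e was at 115 to 204 CPM in CD4 T cells, 113 to 202 CPM in CD8 T cells, and 146 and 142 CPM in the clones of mice 30 and 32. NK cell markers (6 genes, of which Ncr1 was at 0 in all 7 mice by the gate) summed to 0.0 to 28.0 CPM in CD4 T cells and 19.0 to 100.9 CPM in CD8 T cells. B cell markers (8 genes) summed to 9.37 to 158 CPM and 0.0 to 281 CPM, and neutrophil markers (6 genes) to 0.0 to 267 CPM and 0.0 to 326 CPM, in that order. The part of these markers in the results was not tested beyond leaving out cells with a B cell UMI, which ended no call of a member named below.

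CD8 and CD4 T cells of the same nodule were compared first, to see how the factors divide between the T cell lineages of the nodules. Of the 7 members, 2 passed the test, the T-box genes Eomes and Tbx21, and both were higher in CD8 T cells. In edgeR's quasi-likelihood test with the mouse as a block, 314 of 6149 genes (5.11%) passed in either direction at an adjusted p below 0.05, and 115 (1.87%) were higher and 199 (3.24%) lower in CD8 T cells. All 7 members passed the filter on low counts, and their median log2 difference was 0.34, against 0.01 over all genes tested.

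Tbx21 was at 6.15 CPM at the lowest, 22.5 at the median and 42.1 at the highest in CD4 T cells, and at 21.3, 51.7 and 115 CPM in CD8 T cells of the 7 mice. The ranges overlapped, but within each nodule the CD8 T cells held more, with a log2 ratio from 0.69 to 2.43. The fitted difference was 1.51 on the log2 scale (SE 0.23, edgeR adjusted p = 0.000912, higher in 7 of 7 mice). It kept its side of the threshold when any 1 mouse was left out.

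Eomes was at 37.4 CPM (mouse 29), 39.6 (mouse 32), 108 (mouse 34), 128 (mouse 31), 206 (mouse 30), 298 (mouse 27) and 329 (mouse 33) in CD4 T cells. In CD8 T cells it was at 192 CPM at the lowest, 283 at the median and 477 at the highest. Every CD8 value thus lay above the 4 lowest CD4 values, and the means were 164 ± 118 CPM (SD, n = 7) in CD4 and 307 ± 89.8 CPM (SD, n = 7) in CD8 T cells. In mice 27 and 33 both groups were nearly equal, with log2 ratios of -0.07 and 0.01, whereas mouse 29 had the largest ratio, 2.76. The fitted difference was 1.19 (SE 0.29, edgeR adjusted p = 0.0231, higher in 6 of 7 mice). The call was lost without mouse 29, 31, 32 or 34, with edgeR adjusted p values of 0.0826, 0.0846, 0.0729 and 0.0861. It was also lost where cells needed at least 2 UMIs of the coreceptor, which left 6 mice (0.92, adjusted p = 0.171).

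**Figure D1:**
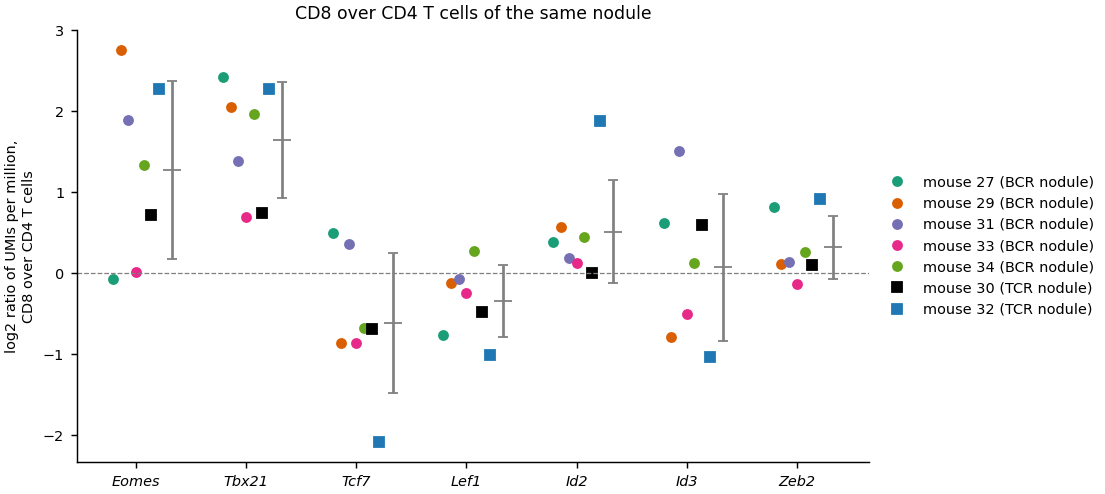
The log2 ratio of CPM in CD8 over CD4 T cells of the same nodule is plotted for each member, with 1 point per mouse (circles BCR nodules, squares TCR nodules) and the mean ± SD over 7 mice in grey. All 7 points of Tbx21 lie above 0, those of Eomes run from -0.07 to 2.76, and those of Tcf7 lie on both sides.

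The level of Eomes in CD4 T cells was set against the gate and against cells that should lack the gene. Thinned to 1000 UMIs per cell, and averaged over all possible draws, 2.77% (mouse 32) to 24.3% (mouse 27) of CD4 T cells and 16.1% to 34.9% of CD8 T cells would hold an Eomes UMI. Without thinning, 3.59% to 56.3% of CD4 T cells held one. The B clones of the 5 BCR nodules, with medians of 9367 to 13763 UMIs per cell before thinning against 1447 to 3678 in CD4 T cells, came to 0.0312% to 0.479% by the same average. The CD4 T cell shares were above these in all 7 mice, but that of mouse 32 rests on 10 UMIs, and 1 draw left 0 of its 79 cells with an Eomes UMI and another 3. Among CD4 T cells with at least 2 Cd4 UMIs, Eomes was at 310 CPM in mouse 27, 349 CPM in mouse 33, 264 CPM in mouse 30, 167 CPM in mouse 31, 149 CPM in mouse 34, 38.0 CPM in mouse 29 and 31.7 CPM in mouse 32. These were above the values of CD4 T cells with 1 Cd4 UMI in 6 mice and below in mouse 32, where they rest on 2 Eomes UMIs. Of CD8-expressing cells, 0.0% to 10.6% per mouse also held a Cd4 UMI and were left out of both gates. Many T-like cells, with uncalled cells of the TCR nodules counted, held no UMI of either coreceptor. They were 293 of 573 in mouse 27, 4165 of 5122 in mouse 29, 5854 of 7221 in mouse 30 and 608 of 877 in mouse 31. In mice 32, 33 and 34 they were 2401 of 3368, 1325 of 3496 and 373 of 905. A CD8 T cell with a stray Cd4 UMI and no Cd8 UMI would enter the CD4 gate, and how many did was not tested.

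The HMG-box genes did not pass. Tcf7 was at 25.4, 183 and 345 CPM (lowest, median, highest) in CD4 T cells and at 22.3, 84.6 and 281 CPM in CD8 T cells. Mice 27 and 33 were the lowest of both groups, and mouse 32 had the widest gap, 345 CPM in CD4 (274 CPM without the cells of the largest clonotype) against 81.0 CPM in CD8 T cells. The log2 difference was -0.65 (SE 0.22, edgeR adjusted p = 0.112). It passed without mouse 31 (-0.88, adjusted p = 0.0223) and with no filter on low counts (-0.60, adjusted p = 0.00352). Lef1 was at 76.4 to 157 CPM in CD4 and 57.0 to 161 CPM in CD8 T cells, with a log2 difference of -0.17 (SE 0.15, edgeR adjusted p = 0.711).

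Of the inhibitors of E proteins, Id2 was at 163, 439 and 985 CPM in CD4 T cells and at 326, 596 and 1282 CPM in CD8 T cells. It was higher in CD8 T cells of 6 of 7 mice, by 0.56 on the log2 scale (SE 0.17, edgeR adjusted p = 0.0729), which missed the threshold. With no filter on low counts it passed (0.59, adjusted p = 0.000319). Id3 was at 2.39 to 83.3 CPM in CD4 and 1.69 to 132 CPM in CD8 T cells, and its log2 difference of 0.09 (SE 0.29, edgeR adjusted p = 0.972) turned to -0.03 when only library sizes scaled the counts. Zeb2, the partner of T-bet, was at 31.97 to 107 CPM and 38.3 to 182 CPM, with a log2 difference of 0.34 (SE 0.15, edgeR adjusted p = 0.399).

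**Figure D2:**
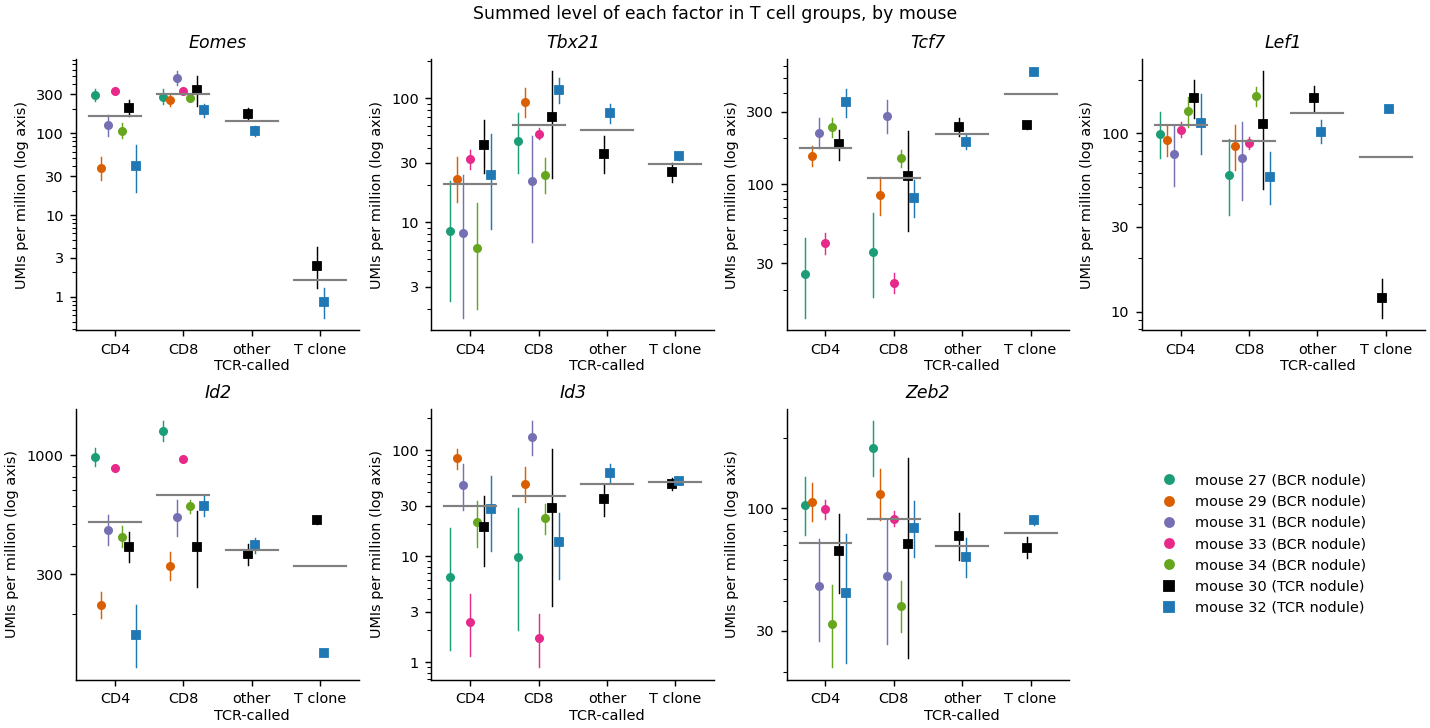
The level of each member in CPM (log axis) is plotted for CD4 T cells, CD8 T cells, other TCR-called T cells and the T clone, with 1 point per mouse, its 95% exact Poisson interval as a bar and the mean over mice as a grey line. Eomes is below 3 CPM in both T clones and between 37.4 and 477 CPM in the CD4 and CD8 T cells, and Lef1 is lower in the clone of mouse 30 (12.0 CPM) than in that of mouse 32 (136 CPM).

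Genes of related programs went as follows in the same comparison. Of 15 effector-linked genes tested, 6 were higher in CD8 T cells and none lower, including Gzma (granzyme A, 3.34, SE 0.39, edgeR adjusted p = 0.000106), Prf1 (perforin, 1.38), Havcr2 (the inhibitory receptor TIM-3, 1.23) and Runx3 (a factor of CD8 lineage cells, 1.04). Of 13 memory-linked genes, 1 was higher and 1 lower, the latter Bcl6 (the factor of follicular helper T cells, -0.61). None of 6 E protein and TCF/LEF partner genes passed. The medians were 0.69, 0.18 and -0.04, against 0.01 over all genes.

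The T clones were then set against other T cells of the same nodule. Eomes was very low in both clones. No other member passed, but 4 sums of 2 mice leave 1 residual degree of freedom per gene, so a miss here does not show like levels. In these sums, 25 of 11639 genes (0.215%) passed against the other TCR-called T cells, of which 24 (0.206%) were lower and 1 (0.00859%) higher in the clones. The members' median was -0.69 on the log2 scale, against 0.03 over all genes.

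Eomes had 13 UMIs in 2107 clone cells of mouse 30, or 2.40 CPM, and 24 UMIs in 4868 clone cells of mouse 32, or 0.866 CPM. The other TCR-called T cells held 175 CPM (mouse 30) and 108 CPM (mouse 32), which was 73.0-fold (95% counting interval 41.6 to 140) and 125-fold (81.2 to 199) more. The clone values lay in the range of the B clones, 0.350 to 4.52 CPM, and averaged over draws of 1000 UMIs 0.201% and 0.0738% of clone cells would hold an Eomes UMI. The fitted difference was -6.74 (SE 0.38, edgeR adjusted p = 0.0187). Its size hardly moved when only clone cells of T-like clusters were kept (-6.64) or when the largest clonotype stood for the clone (-6.79), but the adjusted p rose to 0.0965 and 0.104. Without the 54 cells of the largest clonotype the other T cells of mouse 32 held 118 CPM, and the difference was -6.82 with an edgeR adjusted p of 0.0882. In these 3 alternatives edgeR called no gene (0, with 1044 at an unadjusted p below 0.05 in the last), so the call of Eomes against other TCR-called T cells depends on which cells count as clone.

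CD4 T cells outside the clone family were taken as the like cells of the clones, on the premise that the clones carry Cd4. The Cd4 level of the clones is not given here, and clone cells were gated neither on coreceptor UMIs nor on T-like clusters. Against the CD4 T cells, 72 of 11326 genes (0.636%) passed, 49 (0.433%) of them lower and 23 (0.203%) higher in the clones. Eomes was again the only member among the genes called. CD4 T cells outside the clone held 206 CPM of Eomes in mouse 30 and 39.6 CPM in mouse 32, 85.9-fold (95% counting interval 47.8 to 168) and 45.8-fold (19.5 to 99.3) more than the clone, the latter from 10 UMIs. Without the 19 cells of the largest clonotype the CD4 T cells of mouse 32 were at 49.9 CPM, 57.6-fold (24.6 to 125) more. The fitted difference was -6.08 (SE 0.52, edgeR adjusted p = 6.77e-06), and it passed in each alternative with the mouse as a block, among them without those 19 cells (-6.24, adjusted p = 6.83e-07).

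Lef1, Tcf7 and Id2 differed between the clones themselves. In the clone of mouse 30, Lef1 stood at 12.0 CPM, and at 157 CPM in both the other TCR-called and the CD4 T cells of that nodule, 13.1-fold higher (95% counting interval 9.72 to 17.8 and 9.16 to 18.7). In mouse 32 the clone held 136 CPM of Lef1, the other TCR-called T cells 102 CPM and the CD4 T cells 115 CPM (94.9 and 79.8 CPM without the largest clonotype). With the clones on opposite sides the fit gave -1.71 (SE 1.07, edgeR adjusted p = 0.721). Against CD4 T cells it gave -1.82 (SE 0.71, edgeR adjusted p = 0.509), which passed with no filter on low counts (-1.76, adjusted p = 0.0229) and without cells with B cell UMIs (-1.85, adjusted p = 0.00711).

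Tcf7 stood at 243 CPM in the clone of mouse 30, beside 238 CPM in other TCR-called and 183 CPM in CD4 T cells. In the clone of mouse 32 it was at 544 CPM, beside 189.9 and 345 CPM (164 and 274 CPM without the largest clonotype). Neither fit passed, with differences of 0.46 against CD4 T cells (SE 0.38, edgeR adjusted p = 0.999) and of 0.63 against other TCR-called T cells (SE 0.39, edgeR adjusted p = 0.719). The clone of mouse 32 thus held both HMG-box transcripts, and that of mouse 30 held Tcf7 with little Lef1.

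Id2 went the other way between the clones, with 520.0 CPM (mouse 30) and 135 CPM (mouse 32), where other TCR-called T cells held 366 and 402 CPM (-0.69, SE 0.54, edgeR adjusted p = 0.790). CD4 T cells, taken as the like cells, held 396 and 163 CPM. The latter was 1.21-fold of the clone, with a counting interval that includes 1 (0.864 to 1.64). The fit against CD4 T cells gave -0.0052 (SE 0.39, edgeR adjusted p = 0.999). Without the cells of the largest clonotype, the CD4 T cells of mouse 32 held 180 CPM, 1.33-fold of the clone (0.932 to 1.85). The other TCR-called T cells of mouse 32 then held 431 CPM, 3.20-fold of the clone (2.95 to 3.47). The low level in the clone of mouse 32 was thus closer to that of its CD4 T cells.

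Id3 was nearly equal in the clones, at 48.1 and 51.1 CPM, beside 34.6 and 61.2 CPM in other TCR-called and 18.7 and 27.7 CPM in CD4 T cells, the latter from 8 and 7 UMIs (1.05, SE 0.48, edgeR adjusted p = 0.692). Tbx21 was at 25.3 and 34.1 CPM in the clones, beside 35.6 and 75.9 CPM in other TCR-called T cells (-0.995, SE 0.31, edgeR adjusted p = 0.379). In mouse 30 the counting interval of that ratio includes 1 (1.41-fold, 0.944 to 2.06). CD4 T cells held 42.1 and 23.8 CPM of Tbx21, more than the clone in mouse 30 and less in mouse 32, the latter from 6 UMIs (-0.28, SE 0.51, edgeR adjusted p = 0.999).

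Zeb2 was at 67.9 and 88.8 CPM in the clones, beside 76.3 and 61.8 CPM in other TCR-called and 65.6 and 43.6 CPM in CD4 T cells. Without the largest clonotype, mouse 32 held 64.3 CPM in other TCR-called and 54.9 CPM in CD4 T cells. The CD4 level of mouse 32 was 0.491-fold of the clone (counting interval 0.245 to 0.880) with the largest clonotype and 0.618-fold (0.308 to 1.11) without it. The clones also held transcripts of other cells: neutrophil markers summed to 817 CPM (mouse 30) and 1846 CPM (mouse 32), beside 143 and 189.9 CPM in other TCR-called T cells, and erythroid markers to 715 CPM in mouse 32. Neutrophils held 259.6 to 1552 CPM of Zeb2 (6 mice). When only the 4546 clone cells in T-like clusters were kept in mouse 32, neutrophil markers were at 166 CPM and Zeb2 at 35.2 CPM, below the other T cells, while Tcf7 was at 696 CPM and Lef1 at 172 CPM. In mouse 30, 2091 cells were kept, neutrophil markers were at 163 CPM and Zeb2 at 65.6 CPM. With only these cells, Id2, Tbx21 and Id3 were at 160, 42.6 and 65.0 CPM in the clone of mouse 32. In the clone of mouse 30 they were at 522, 24.7 and 49.0 CPM.

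**Figure D3:**
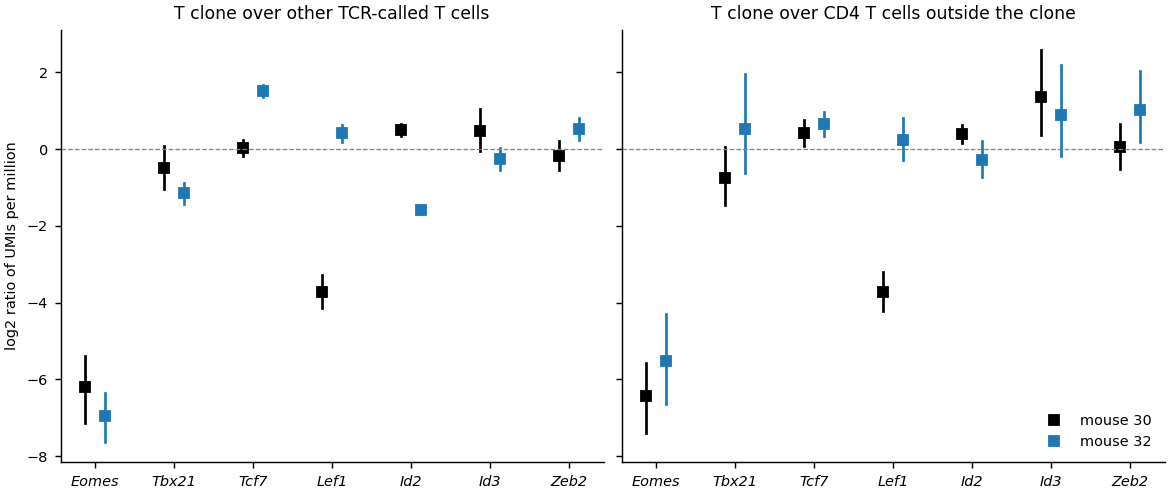
The log2 ratio of CPM in the T clone over other TCR-called T cells and over CD4 T cells outside the clone is plotted for each member in mice 30 and 32, with 95% counting intervals as bars. Eomes lies far below 0 in both mice and both comparisons, and Lef1 is below 0 in mouse 30 only.

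Of 16 effector-linked genes tested in the clones against other TCR-called T cells, 2 were lower and none higher, the chemokine gene Ccl5 (-5.63, SE 0.40, edgeR adjusted p = 0.0384) and the granule gene Nkg7 (-4.08, SE 0.35, edgeR adjusted p = 0.0384). Neither passed without the 54 cells of the largest clonotype, where no gene did. The median of the list was -1.75. None of 14 memory-linked genes passed (median -1.04), nor did any of 7 partner genes (median -0.26). Against CD4 T cells, Ccl5, Gzma, Nkg7 and Havcr2 were lower, by -4.60, -2.95, -3.22 and -3.13.

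Whether the factors of T cells outside the clones go with the kind of nodule was asked next, with 2 TCR against 5 BCR nodules. In the TCR nodules these were TCR-called cells without the clone family. In the BCR nodules, which had no TCR library, they were T-like cells without a called BCR, and their clonality is not known. No gene passed in CD4 T cells (0 of 6968, 0%, with 231 at an unadjusted p below 0.05, and 0 in DESeq2) or in CD8 T cells (0 of 7162, 0%, with 258 unadjusted, and 2 in DESeq2). Among CD4 T cells the members' log2 differences ran from -1.06 for Id2 (SE 0.62) to 1.05 for Tcf7 (SE 0.71), and among CD8 T cells from -1.11 for Id3 (SE 1.46) to 1.07 for Tbx21 (SE 0.52). The values of the groups overlapped for most members. For example, Id2 in CD4 T cells was at 163 and 396 CPM in the TCR nodules and at 220.0 to 985 CPM in the BCR nodules. The difference between CD8 and CD4 T cells itself differed between the kinds of nodule for 2 of 6149 genes (0.0325%), neither a member, with Tcf7 at -1.32 (SE 0.45, edgeR adjusted p = 0.932).

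The levels of several members varied widely among nodules of 1 kind. Id2 was highest in the nodules of mice 27 and 33 in both CD4 (985 and 879 CPM) and CD8 T cells (1282 and 959 CPM), and these were the nodules with least Tcf7 (25.4 and 40.6 CPM in CD4, 35.8 and 22.3 CPM in CD8 T cells) and least Id3 (6.33 and 2.39 CPM, 9.76 and 1.69 CPM). Over the 16 sums of CD4, CD8 and clone cells, Pearson's r of log2(CPM + 10) was -0.80 for Tcf7 with Id2, 0.75 for Tcf7 with Id3 and -0.64 for Eomes with Tcf7. It was 0.65 for Eomes with Id2 and 0.19 for Eomes with Tbx21. These sums share mice and libraries, and the values are a description.

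By the same measure, the genes most like Eomes were Ms4a4b (r = 0.96), Ccl5 (0.96) and Lpin1 (0.94). Those most like Tcf7 were Tnf (0.91), Map4k4 (0.91) and Arhgap39 (0.86), and those most like Id2 were Sla2 (0.93), Med11 (0.89) and Ubl5 (0.88). Tbx21 went with Slc2a3 (0.91), Gm43065 (0.83) and Hip1 (0.82), and Id3 with Itgb1 (0.90), Gtf2a1 (0.83) and Elk4 (0.83). Lef1 went with Ikzf1 (0.79), Bzw1 (0.79) and Ifng (0.71), and Zeb2 with Plcl2 (0.77), Rell1 (0.77) and Stat3 (0.77).

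Tcf7 and Id2 were then set side by side among cells of the same nodule, where CD8 T cells with and without a Tcf7 UMI were compared after thinning each cell to 1000 UMIs. Mice 33 and 34 had at least 20 cells of each. Id2 was lower in cells with a Tcf7 UMI, and it was the only member of 4 tested that passed, where 75 of 2926 genes (2.56%) passed 42 (1.44%) of them higher and 33 (1.13%) lower. It was at 438 CPM (14 UMIs in 32 cells) against 1093 CPM in mouse 33 and at 140.0 CPM (7 UMIs in 50 cells) against 715 CPM in mouse 34. The log2 difference was -1.72 (SE 0.30, edgeR adjusted p = 7.43e-06). With 2 mice, this p value rests largely on a spread pooled over genes and little on that between the mice.

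Without thinning, deeper cells are likelier to hold a Tcf7 UMI, so depth enters the split and its part was not tested. In that setting 5 mice had enough cells, and Id2 was lower in the cells with a Tcf7 UMI in each of them. The values were 87.9 against 358 CPM in mouse 29, 187 against 751 CPM in mouse 31, 411 against 652 CPM in mouse 32, 448 against 999 CPM in mouse 33 and 194 against 753 CPM in mouse 34. The log2 difference was then -1.42 (SE 0.18, edgeR adjusted p = 0.000184). Lef1 was higher in the thinned cells by 0.84 (SE 0.45, edgeR adjusted p = 0.434), and it passed without thinning (0.95, adjusted p = 0.0117). Eomes was at -0.17 (SE 0.34, edgeR adjusted p = 0.920) and Zeb2 at 0.34 (SE 0.69, edgeR adjusted p = 0.920), while Tbx21 and Id3 were too low to be tested.

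Memory-linked and effector-linked genes parted in the same split. Of 10 memory-linked genes, 4 were higher in cells with a Tcf7 UMI, among them Klf2 (a factor of quiescent and recirculating T cells, 1.05), Ccr7 (the chemokine receptor of lymph node entry, 2.58) and Il7r (the interleukin-7 receptor, 0.87). Of 14 effector-linked genes, 5 were lower, among them Ccl5 (-1.82), Gzmb (granzyme B, -2.65), Nkg7 (-1.05) and Gzmk (granzyme K, -0.99). Tcf12, which encodes an E protein, was higher by 1.53 (SE 0.43, edgeR adjusted p = 0.0225), the only partner gene of 3 tested that passed.

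In CD4 T cells 6 mice could be split by a Tcf7 UMI, and Id2, the only member with enough counts, did not pass at 1000 UMIs per cell (-0.70, SE 0.23, edgeR adjusted p = 0.254), where 5 of 877 genes (0.57%) passed. It was lower with a Tcf7 UMI in 5 of 6 mice, and in mouse 32 the CD4 T cells without the largest clonotype were too few for the split (-0.61 in the other 5 mice, adjusted p = 0.619). The values with and without were 241 and 221 CPM in mouse 29, 4 UMIs in 20 cells against 587 CPM in mouse 30, 417 and 518 CPM in mouse 31, 47.6 and 241 CPM in mouse 32, 571 and 932 CPM in mouse 33, and 233 and 489.8 CPM in mouse 34. Id2 passed without thinning (-1.06, SE 0.18, edgeR adjusted p = 0.00587), where depth enters the split. It also passed at 500 UMIs per cell in 3 mice (-2.54, adjusted p = 0.000822). Without cells with B cell UMIs (-0.95, adjusted p = 0.0361) and with no filter on low counts (-1.08, adjusted p = 0.0125) it passed too. Ccl5 (-2.50) and Nkg7 (-1.73) were lower in the thinned cells.

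**Figure D4:**
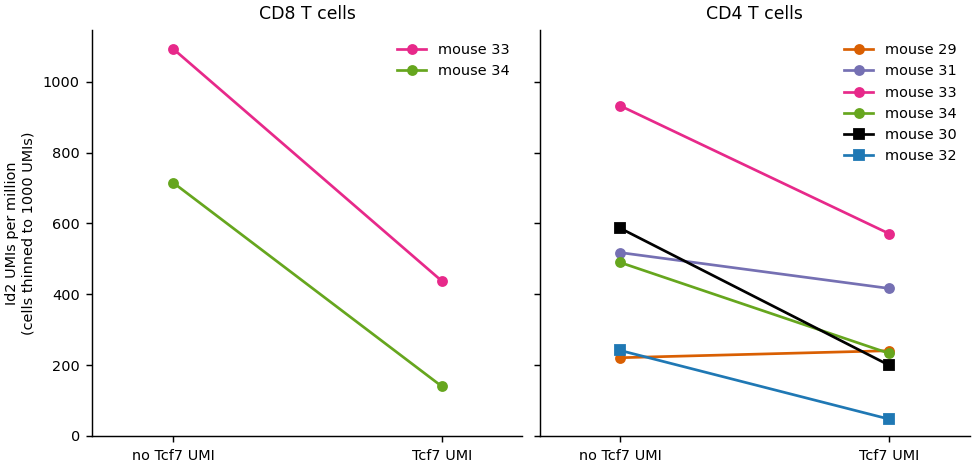
The level of Id2 in CPM after thinning to 1000 UMIs per cell is plotted for cells without and with a Tcf7 UMI, CD8 T cells on the left (2 mice) and CD4 T cells on the right (6 mice), with lines joining the same mouse. Each line falls except that of mouse 29 in CD4 T cells, which goes from 221 to 241 CPM.

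CD4 T cells with and without an Eomes UMI were compared in mice 27, 30, 33 and 34, a comparison chosen after the levels of Eomes had been seen. Of 1628 genes 3 (0.184%) passed, 1 (0.0614%) higher and 2 (0.123%) lower, with Ccl5 higher (1.47, SE 0.24, edgeR adjusted p = 0.0104) and no member. Lef1 was higher in 4 of 4 mice (0.84, SE 0.29, edgeR adjusted p = 0.491), at 132 against 79.9 CPM in mouse 33, which had most such cells, and so was Id2 (0.58, SE 0.20, edgeR adjusted p = 0.491). Without thinning, where depth enters the split, Lef1 was at 0.31 with 6 mice (adjusted p = 0.570). In mouse 34 it was then lower in cells with an Eomes UMI, at 73.5 against 151 CPM. Regulatory T cells, marked by a Foxp3 UMI, numbered 0 to 16 CD4 T cells per mouse. That was too few for a test. In them Eomes was at 0 UMIs in mice 29, 31 and 34, which allows up to 160.5, 113 and 36.6 CPM, and at 125 CPM (7 UMIs) in mouse 33.

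Across the T-like clusters without the clone families, in which cells of the TCR nodules counted whether or not their TCR was called, Eomes was high in those led by genes of cytotoxic granules. In cluster 2, led by Ccl5, Nkg7, Ccl4 and Gzmb, it was at 171, 316 and 441 CPM (lowest, median and highest of 7 mice), and in cluster 3, led by Tnfsf8, Ikzf2, Penk and Areg, at 0.0, 6.35 and 31.6 CPM. The ranges did not overlap. Cluster 30, led by Nkg7, Gzmb and Gzmk with the histone gene Hist1h3c, held 241 to 315 CPM (3 mice), and cluster 13, led by the interferon-induced Ifit1 and Cxcl10, held 1.51 to 24.7 CPM (5 mice). Tcf7 was at 38.5 to 227 CPM in cluster 2 and 88.0 to 316 CPM in cluster 3, and Id3 at 1.59 to 76.7 CPM and 8.69 to 119 CPM. Since genes that go with the members shaped the clusters, although the members themselves were left out of the clustering, these values are a description.

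The non-T cells of the nodules set the members apart from each other. Zeb2 was at 508 to 1469 CPM in macrophages or monocytes (7 mice), above its level in the CD4 and CD8 T cells of all mice. Id3 was at 216 to 546 CPM in endothelial cells (5 mice) and 249 to 1264 CPM in fibroblasts (3 mice), against at most 132 CPM in CD4 and CD8 T cells. Id2 was at 112 to 723 CPM in macrophages or monocytes, a range that overlapped with that of T cells. In B cells outside the clones, macrophages or monocytes, endothelial cells and fibroblasts, Eomes reached at most 27.9 CPM, Tbx21 10.97 CPM and Lef1 28.8 CPM, and Tcf7 reached 75.3 CPM in the B cells of 1 nodule.

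**Figure D5:**
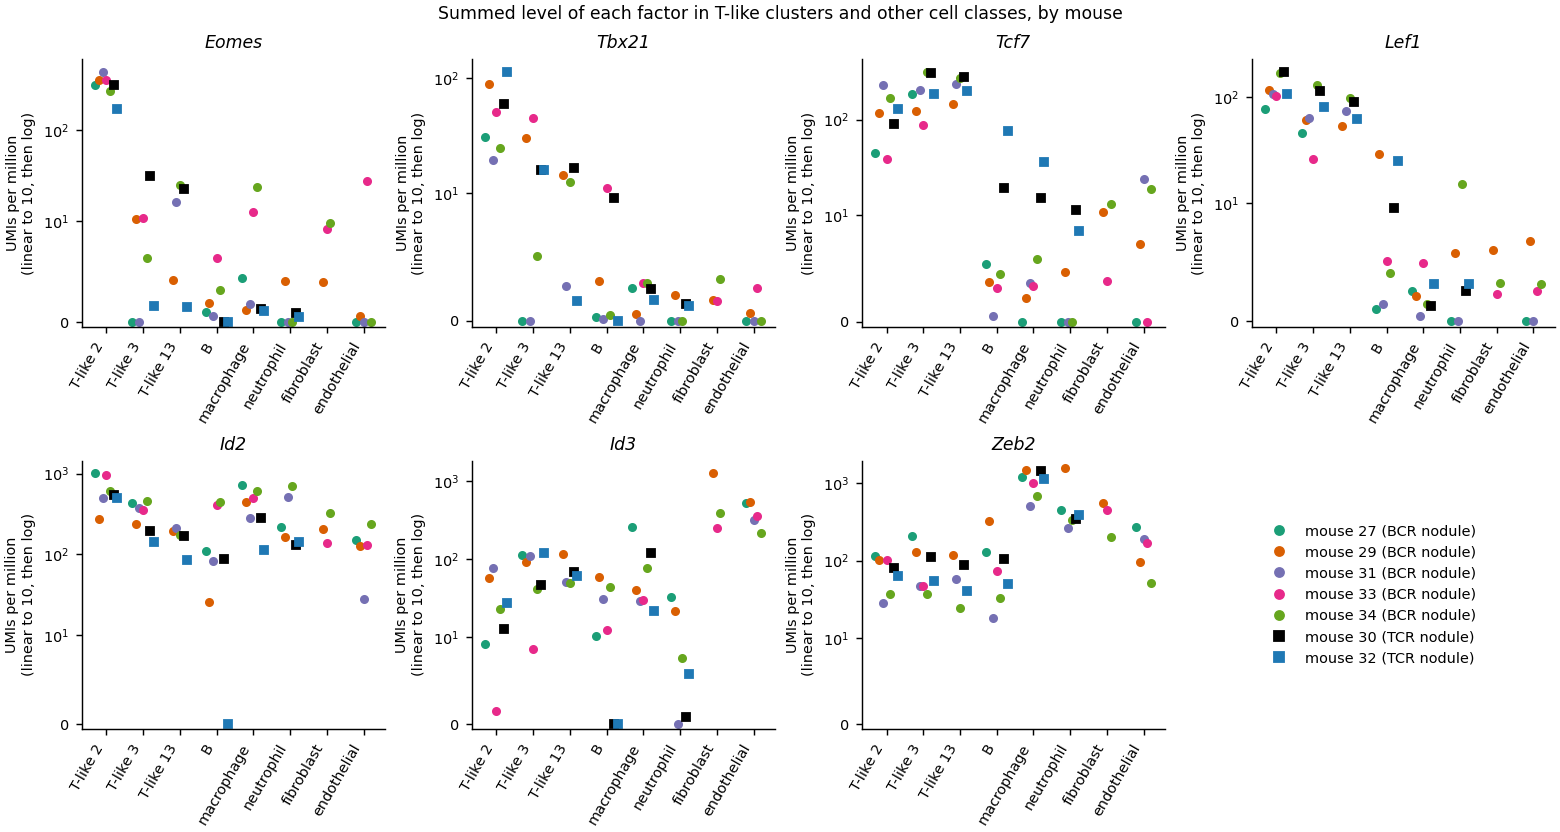
The level of each member in CPM is plotted for T-like clusters 2, 3 and 13 and for B cells, macrophages or monocytes, neutrophils, fibroblasts and endothelial cells, with 1 point per mouse (axis linear to 10 CPM and log above). Of the groups plotted, Eomes is highest in cluster 2, at 171 to 441 CPM, Zeb2 is highest in myeloid cells and Id3 in fibroblasts and endothelial cells.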

How the data were processed

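The deposited matrices hold raw UMI counts without normalization by the authors, and these and the contigs of the V(D)J libraries were used. Per the labels the build was GRCm38 (mm10); the aligner and the rule for calling cells are not given in the sources used here, nor was it settled which transcript end was counted. Of 77442 cells, 75503 with at least 201 UMIs, 101 genes and at most 10% mitochondrial UMIs were kept (median 1364 to 5319 UMIs per cell). Cells were clustered in scanpy 1.11.5 (Python 3.11.15; 2000 variable genes without the 7 members, 30 components, 15 neighbors, leidenalg 0.10.2 at resolution 1.0; 33 clusters, 7 T-like) and named from at least 3 markers. The names are rebuilt, not the study's. No doublet caller was run. Cells with UMIs of both coreceptors, or of Trdc or Ncr1, left the gates, and removing cells with B cell UMIs was an alternative.

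UMIs were summed per mouse and group (at least 20 cells) and tested with edgeR 4.0.16 (R 4.3.3; quasi-likelihood, TMM, filterByExpr, Benjamini-Hochberg over all genes tested), with DESeq2 1.42.0 as an alternative. The mouse was the block, since both sums come from the same animal. Deviations of CD8 and CD4 sums of a mouse correlated at 0.32 to 0.76. The scripts were tested on simulated data with 200 genes changed. These were drawn from genes expected at 20 or more UMIs in a sum of mean size. Deviations shared by the sums of a mouse were not simulated. Recovery was counted over the changed genes that passed the filter, so it does not cover genes of low count. For CD8 against CD4 T cells, 98.9% of 2-fold and 100% of 4-fold changes were recovered, with 12 false calls. For clones against other T cells it was 1.06% and 48.4%, also with 12 false calls. Where nothing was changed, these designs gave 1 and 7 calls. Each p sets a difference against the spread between mice, which edgeR pools in part over genes. Where only 2 mice gave both groups, as in the clone comparisons and the CD8 Tcf7 split, p rests largely on the pooled spread. Promoters are from RefSeq. Members, context lists (memory-linked, effector-linked, E protein and TCF/LEF partner genes) and tests were chosen with earlier results of these data known. Named were all members, per list up to 4 genes with the smallest adjusted p, the 3 genes most like each member, and Eif3e. A memory-linked gene that counts among those called is not reported by name here.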

Additional observations from a re-analysis of the deposited data

Results flagged for a closer look

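Dixon's test for a lone sample marked 3 of 35 sets of values, where chance marks about 1 in 20. Id3 in CD8 T cells was at 132 CPM in mouse 31, far above the next mouse at 48.3 CPM. Eomes in T-like cluster 3 was at 31.6 CPM in mouse 30, far above the next at 10.9 CPM. The log2 ratio of Id2 in CD8 over CD4 T cells was 1.88 in mouse 32, far above the next at 0.57.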

How the results depend on the processing

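Of 429 member values under alternatives other than leaving out a mouse, 389 kept their direction and side of the threshold, as did 191 of 209 values with 1 mouse left out. Counts of genes called are given in the order CD8 against CD4 T cells, clones against other T cells, clones against CD4 T cells, CD4 and then CD8 T cells of TCR against BCR nodules, CD8 and then CD4 T cells by a Tcf7 UMI, CD4 T cells by an Eomes UMI, and the difference between the kinds of nodule. As reported they were 314, 25, 72, 0, 0, 75, 5, 3 and 2. With no filter on low counts they were 837, 525, 195, 4, 11, 46, 32, 36 and 14. Without the replicate block, the paired comparisons gave 6, 0, 0, 0, 0, 0 and 0 calls, Id2 in clones against CD4 T cells turned to 0.13, and Eomes (adjusted p 0.684, 0.222 and 0.864), Tbx21 (0.219) and Id2 by a Tcf7 UMI in CD8 T cells (0.664) lost their calls.

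DESeq2 called 222 genes in clones against other T cells, 2 in CD8 T cells of TCR against BCR nodules and 11 by a Tcf7 UMI in CD8 T cells, and Tbx21 turned to -0.062 in the difference between the kinds of nodule. Library sizes alone gave 4, 45 and 0 calls in the clone comparisons and that difference, with Id3 at -0.025 (CD8 against CD4) and 0.088 (clones against other T cells) and Id2 at 0.079 (clones against CD4). Cells without B cell UMIs gave 15, 218, 11, 8 and 0 calls in the clone comparisons, the Tcf7 splits and that difference, with Zeb2 at -0.30 in the CD8 split. A Cd3 gate without clusters gave 18 and 9 calls in the Tcf7 splits, and 0 in the Eomes split and that difference. Cells not thinned gave 160, 30 and 216 calls in the splits, with Eomes at 0.15 and Zeb2 at -0.12 in the CD8 split, where no filter gave Zeb2 -0.11. The largest clonotype as the clone gave 0 and 165 calls and Zeb2 -0.0016 against other T cells. Clone cells in T-like clusters alone gave 0 and 163 calls, Id3 at 0.16 and Zeb2 at -0.64 against other T cells, and Id2 at 0.15 and Zeb2 at -0.19 against CD4 T cells, where no filter gave Id2 0.052. Without Foxp3 cells, 32 genes passed in clones against CD4 T cells. Alternatives chosen after seeing the data were a gate of at least 2 coreceptor UMIs, with 46 and 0 calls in CD8 against CD4 and its difference and Zeb2 at 0.45 in CD4 T cells of TCR against BCR nodules, and, for CD8 against CD4, called and uncalled cells of TCR nodules, with 522 calls and Id3 at -0.34. Leaving the largest clonotype out of the T cells, also chosen then, gave 0 calls and Zeb2 at -0.0029 in clones against other T cells. In the other comparisons uncalled cells gave Lef1 -0.019 and Id3 0.63 (CD4), Tcf7 0.15 (CD8), and 0 calls and Tbx21 -0.21 (difference).

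With 1 mouse left out, counts ran from 131 to 428 (CD8 against CD4), 0 to 3 (CD4 and CD8 T cells by nodule), 3 to 6 (Tcf7, CD4), 1 to 9 (Eomes) and 0 to 3 (difference). Member values that turned ran from -0.33 to 0.18 for Id3 (CD8 against CD4), -2.19 to 0.20 for Eomes and -0.77 to 0.59 for Id3 (CD4 by nodule), -0.56 to 0.31 for Tcf7 and -0.66 to 0.083 for Zeb2 (CD8 by nodule). In the difference they ran from -0.47 to 1.22 for Eomes, -0.78 to 0.89 for Tbx21, -0.47 to 1.54 for Id2, -1.13 to 0.38 for Id3 and -0.22 to 0.72 for Zeb2. The cause of these changes was not tested. Not run were leaving out a mouse where only 2 gave both groups, thinning to 500 UMIs in the CD8 Tcf7 and the Eomes split, and the test of Foxp3 cells. CD8 T cells of mouse 30 (24 cells), the Tcf7 splits and the low counts of Tbx21 and Id3 limit what depth can show.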
